A study of Mus musculus with 47 samples.

Results

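The 102 genes described here are autosomal genes whose allelic reads came almost entirely from the Cast genome in hybrid mouse iPSCs. They were chosen by 3 limits: at least 470 counts summed over 47 cells and both alleles, reads in at least 15 cells, and a pooled Mus share (Mus counts divided by Mus plus Cast counts over all cells) of at most 5%. Of 13947 genes in the deposited table, 13515 were autosomal and 2517 passed the limits on counts and cells, and these are called the tested genes. Among them 115 (4.57%) had a Mus share of at most 5%. Leaving out the imprinted gene Peg3 and 12 genes whose symbols start with Rps, Rpl or Zfp gave the 102 genes, or 4.05% of those tested. Because the Mus share chose the genes, their low share is a description and no test was made of it.

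The cells were iPSCs from female embryonic fibroblasts, reprogrammed by lentiviral overexpression of OSKM, the Oct4, Sox2, Klf4 and c-Myc factors. The mothers were Mus musculus musculus (Mus) animals with a transgenic eGFP on the X chromosome and the fathers Mus musculus castaneus (Cast), so that autosomes were inherited as 1 Mus and 1 Cast copy, and the strain of an allele and the parent it came from cannot be told apart. The table's column names call the Mus allele X129, after a laboratory strain that the sample labels do not name, so that Mus counts here are those of the allele given that name. Column names of the table sort the cells into 23 X-Mus X-Cast cells with both X chromosomes, 15 X-Cast O-Mus cells that had lost the Mus X and 9 X-Mus O-Cast cells that had lost the Cast X. All 47 came from 1 plate. As the labels do not tell cultures apart, the cells count as 1 sample and no p-value is given.

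In a hybrid, reads that cover a base differing between the parental strains can be assigned to an allele, and most autosomal genes are read from both copies. Departures from an even split can come from imprinting, from regulatory or copy-number differences between strains, and from reads of an allele being lost or misplaced when they are aligned to a reference that carries similar sequence elsewhere. Processed pseudogenes, copies of spliced mRNA inserted in the genome, are a common source of such similar sequence, and abundant housekeeping mRNAs have many of them.

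Total allelic counts ranged from 71682 to 216451 per cell. Of 12 iPSC markers in the table, 10 had reads in at least 35 cells. The 7 fibroblast markers summed to 104 counts and none was read in more than 10 cells, the 3 primitive endoderm markers summed to 14 counts and the 4 trophoblast markers to 34. The library protocol describes no molecular identifiers, so the exact binomial (Clopper-Pearson) 95% intervals given below cover counting error at most. Where a read over several SNPs was counted more than once, counts are not independent reads, and the intervals and the limits for a count of 0 are then too narrow.

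To show how closely exons of some of these genes resemble other genes, coding stretches of 4 of them are given beside the gene that shares most of their exon sequence. Every stretch holds at least 50 bases, the read length, that are identical in both genes, and capitals mark the bases that differ. The sequences are from GENCODE M21 transcripts (GRCm38). The first 100 coding bases of Timm23, a channel subunit of the mitochondrial inner membrane translocase (chr14:32180162-32201898, minus strand), and of Fau, a ubiquitin-like protein fused to ribosomal protein S30 (chr19:6057844-6059524, plus strand), were the same in Gm10273 on chromosome 10 and in the processed pseudogene Gm9843 on chromosome 16, and are written once.
Timm23 and Gm10273: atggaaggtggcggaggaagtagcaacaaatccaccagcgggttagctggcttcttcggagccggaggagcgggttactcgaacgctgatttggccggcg
Fau and Gm9843: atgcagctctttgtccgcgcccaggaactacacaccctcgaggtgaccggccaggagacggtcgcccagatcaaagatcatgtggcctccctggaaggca
Hspa8 (chr9:40800984-40810087, plus strand), coding bases 15 to 114, differed by 1 base from the processed pseudogene Gm15459 on chromosome 5.
Hspa8: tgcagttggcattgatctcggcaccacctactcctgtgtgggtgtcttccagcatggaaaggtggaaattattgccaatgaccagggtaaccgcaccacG
Gm15459: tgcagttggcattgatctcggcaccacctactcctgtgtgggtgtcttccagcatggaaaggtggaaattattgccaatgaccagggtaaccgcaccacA
Prdx2 (chr8:84969587-84974834, plus strand), coding bases 172 to 271, differed by 4 bases from the processed pseudogene Tdpx-ps1 on chromosome 1.
Prdx2: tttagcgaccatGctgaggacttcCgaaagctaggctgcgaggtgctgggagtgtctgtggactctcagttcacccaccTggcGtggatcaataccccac
Tdpx-ps1: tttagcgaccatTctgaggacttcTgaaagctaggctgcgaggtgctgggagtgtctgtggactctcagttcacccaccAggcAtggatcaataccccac

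The genes read almost only from Cast held 210593 counts, 2.73% of all allelic counts, of which 2411 were Mus, a pooled Mus share of 1.14% (95% interval 1.10% to 1.19%). Across the tested genes the median Mus share was 46.2% (quartiles 34.8% and 53.8%). In the opposite direction 17 tested genes (0.675%) had a Mus share of at least 95%, against 115 at the Cast end. The one-sided genes were not confined to weakly read ones: they made up 4.29% of tested genes with 470 to 939 counts, 3.75% of those with 940 to 2349, 3.44% of those with 2350 to 4699 and 5.15% of those with 4700 counts or more.

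**Figure D1:**
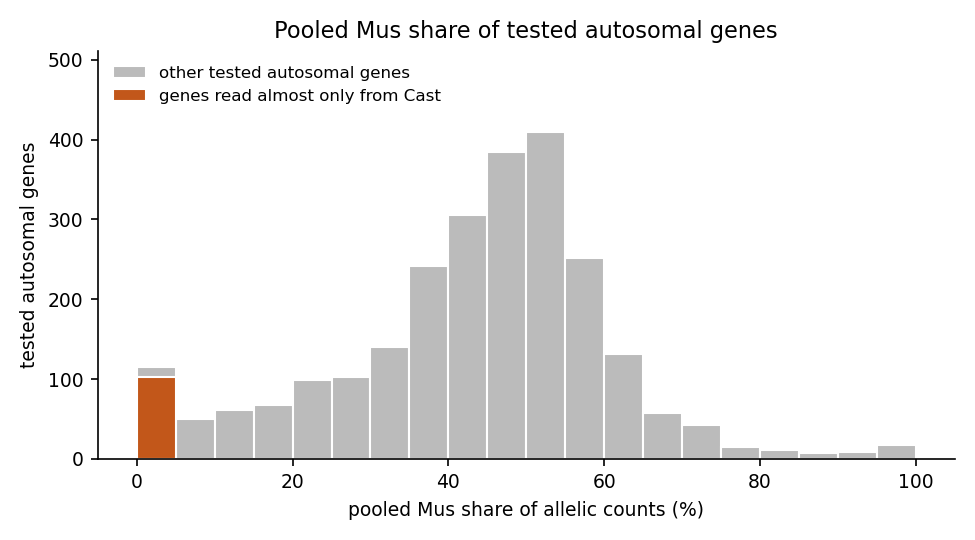
Number of tested autosomal genes (y axis) by pooled Mus share in percent (x axis, bins of 5 percentage points), with the 102 genes read almost only from Cast in orange. The bin at the Cast end holds 115 genes and stands above its neighbour, while the bin at the Mus end holds 17.

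Genes just inside the limit of the share were Ajuba (4.93%), Sae1 (4.88%) and Prmt5 (4.72%), and just outside were H60b (5.04%), Zmat2 (5.05%) and Gss (5.22%). At the limit on counts, Jpt1 (483 counts), Dok5 (487 counts) and then Ube2s were inside, and Aurkaip1 (454), Junb (448) and Stxbp2 (445) were outside. Dok5, with reads in 16 cells, Iqcc (19) and Pxt1 (23) were nearest to the limit on cells, and no gene that met the other limits fell outside it.

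The 10 genes with most counts gave 44.6% of the counts of the whole set, and they encode abundant housekeeping proteins. Tubb5, a beta-tubulin, was the most strongly read, with 18664 Cast and 5 Mus counts, a Mus share of 0.0268% (0.0087% to 0.0625%). Its Cast counts per 10000 allelic counts had a lowest, median and highest value of 9.03, 23.5 and 29.8 among X-Mus X-Cast cells, 20, 22.9 and 33.6 in X-Cast O-Mus cells and 9.07, 25.9 and 30.4 in X-Mus O-Cast cells, so that the ranges of the classes overlapped from 20 to 29.8. Mus reads of Tubb5 were present in 3 cells, with at most 2 counts in a cell.

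Hspa8, the constitutive cytosolic Hsp70 chaperone, had 17284 Cast and 32 Mus counts (0.185%, 0.126% to 0.261%). Its Cast counts per 10000 ran from 9.48 to 39.3 (median 24.6) in X-Mus X-Cast cells, from 9.32 to 37.1 (median 20.4) where the Mus X was lost and from 4.95 to 27 (median 21.4) where the Cast X was lost. Both Hspa8 and Tubb5 were thus read from Cast in every cell, with levels that overlapped between the classes.

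Dad1, a subunit of the oligosaccharyltransferase that glycosylates proteins in the endoplasmic reticulum, had 10084 Cast counts against 3 Mus counts (0.0297%). Its Cast counts per 10000 allelic counts ran from 3.77 to 24.8 (median 11.7) in X-Mus X-Cast, from 7.81 to 22.6 (median 13.5) in X-Cast O-Mus and from 4.57 to 32.1 (median 9.35) in X-Mus O-Cast cells. The classes overlapped, and the highest value belonged to the X-Mus O-Cast cell with the fewest counts of all cells (71682, with 112335 in the next).

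Sdhc, a membrane anchor of succinate dehydrogenase, had 5755 Cast counts and 1 Mus count. The peroxiredoxin Prdx2 had 6754 and 25, and the mitochondrial inner membrane protein Ghitm 6387 and 67. Among the others of the 10 genes, the Mus share was 1.03% (0.79% to 1.32%) for Atp5g1, which encodes the c subunit of ATP synthase, 2.02% (1.68% to 2.39%) for Fau and 2.67% (2.26% to 3.12%) for Psmb5, a catalytic beta subunit of the proteasome. Mus reads of Psmb5 were spread over 41 cells with at most 8 counts each, and those of Fau over 33 cells with at most 12.

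**Figure D2:**
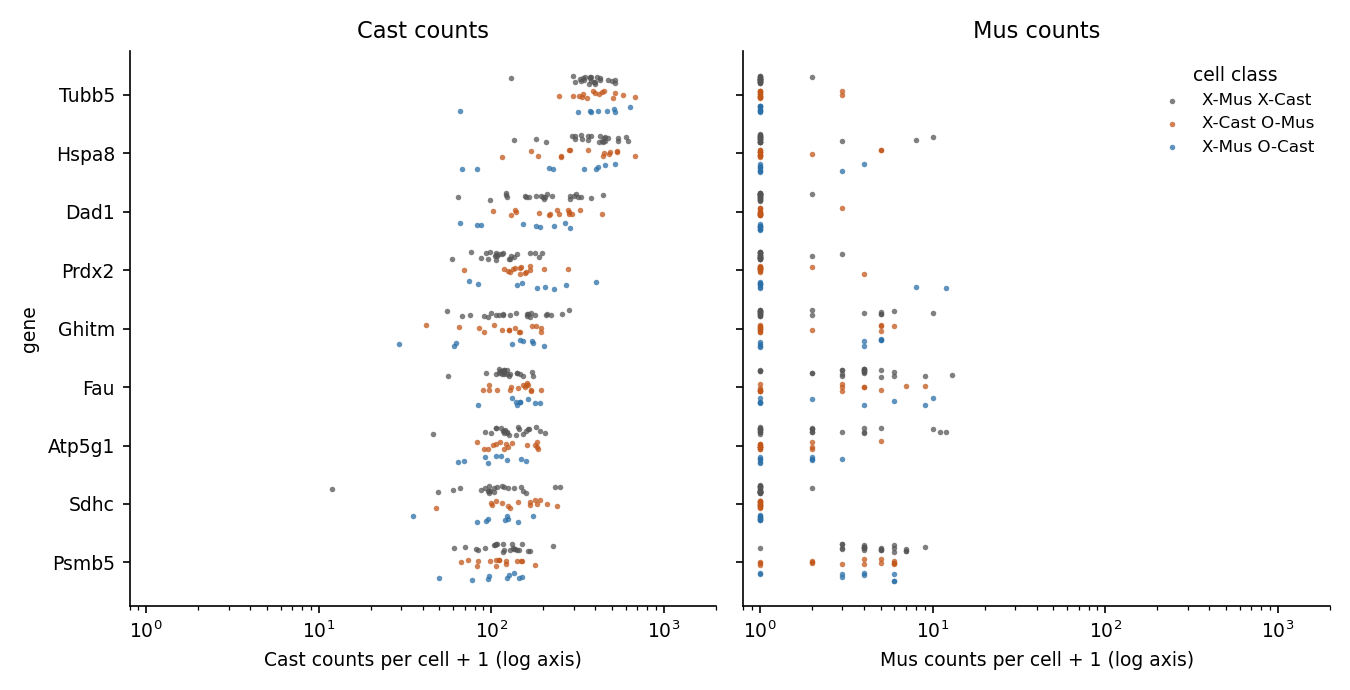
Cast (left) and Mus (right) counts per cell plus 1, on log axes, of 9 of the 10 genes with most counts; each point is 1 of 47 cells, coloured by class. Cast counts of these 9 genes were above 0 in every cell, whereas Mus counts were 0 in most cells for Tubb5, Hspa8, Dad1, Prdx2 and Sdhc and above 0 in most cells for Fau and Psmb5.

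Genes with no Mus read at all numbered 25, with 29728 Cast counts between them, and 11 of these had at least 1000 counts. Poglut1, the enzyme that adds O-glucose to EGF repeats of proteins such as Notch, was the deepest, with 4354 Cast counts and reads in all 47 cells, and a count of 0 allows a Mus share of up to 0.0689% (3 counts of the total, as for every limit given for a count of 0). Its Cast counts ran from 6 to 392 per cell with a median of 80. Apoa2, an apolipoprotein of high-density lipoprotein, had 2261 Cast counts (limit 0.133%), the GTPase-activating protein gene Dlc1 had 2072 (0.145%), the translation initiation factor gene Eif3e had 1946 (0.154%), the reductase gene Cyb5r3 had 1879 (0.16%) and Tmem160 had 1710 (0.175%). The other 5 with at least 1000 counts were Aunip, a (nonagouti), Cnot8, a deadenylase subunit, Gtf2h4, a subunit of the transcription factor TFIIH, and Smim7.

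The share of Mus reads assigned where no Mus allele remained gives a scale for these values. On the X chromosome of X-Cast O-Mus cells, 91 of 27634 allelic counts were Mus, or 0.329% (0.265% to 0.404%). Of the 102 genes, 39 had a Mus share at or below that value, among them Tubb5, Hspa8, Dad1, Sdhc and the 25 without Mus reads, and 63 were above it. This split depends on depth, as a count of 0 in a weakly read gene can allow a share above 0.329%. Examples are Tomm40l (up to 0.573%) and Jpt1 (up to 0.621%). Of the 54 genes with at least 1000 counts, 25 were at or below the value.

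Where Mus reads occurred, they were spread over many cells in some genes and held in a few cells in others. In 23 of the 102 genes Mus reads were found in at least 10 cells, as in Psmb5 (41 cells), Sae1 (40 cells), a subunit of the SUMO-activating enzyme, Prmt5 (39 cells), an arginine methyltransferase, Polr1d (38 cells), a subunit shared by RNA polymerases I and III, Uchl1 (34 cells), a ubiquitin hydrolase, and Farsb (32 cells), a subunit of phenylalanyl-tRNA synthetase. In 27 genes they occurred in 1 or 2 cells. Of 25 Mus counts of the phosphatase gene Ptpn18, 19 came from 1 X-Cast O-Mus cell that also had 37 Cast counts, and of 20 Mus counts of the peptidase gene Blmh, 15 came from 1 X-Mus O-Cast cell that had 2 Cast counts. The highest number in a cell was that of Atp5g2, a further gene for the c subunit of ATP synthase, where 1 X-Mus O-Cast cell held 50 of its 102 Mus counts beside 32 Cast counts. Over all genes of the set, 4284 pairs of a gene and a cell had reads, 724 of these had Mus reads and 12 had Mus reads only.

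Summed over the genes, the Mus share and the share of counts overlapped between the cell classes. The pooled Mus share was 1.19% (1.12% to 1.26%) in X-Mus X-Cast cells, 0.952% (0.881% to 1.03%) in X-Cast O-Mus cells and 1.37% (1.26% to 1.49%) in X-Mus O-Cast cells, and the values of single cells ran from 0.712% to 1.82% (median 1.19%), from 0.655% to 1.34% (median 0.999%) and from 0.894% to 2.69% (median 1.18%), so that the classes overlapped. The genes took a median of 2.69%, 2.74% and 2.79% of the allelic counts of a cell in the same order. Counted within a class alone, the share was at most 5% for 98 of the 102 genes in X-Mus X-Cast, 98 in X-Cast O-Mus and 91 where the Cast X was lost. The highest values within a class were 10.8% for Ufc1 in X-Mus X-Cast cells (20 of 185 counts, from 3 cells), 26.3% for Dok5 in X-Cast O-Mus cells (5 of 19 counts from 1 cell, interval 9.15% to 51.2%) and 10.8% for Atp5g2 in X-Mus O-Cast cells (52 of 482 counts, from 2 cells).

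Cast counts of single genes were compared between the classes as well. Of 54 genes of the set with at least 1000 Cast counts, the class medians of Cast counts per 10000 differed by at least 3 times in 6 (11.1%), beside 60 of 711 tested genes with as many Cast counts (8.44%), so the share in the set was near that of tested genes. As examples named after their values were seen, Coil and Apoa2 are given. Coil, the gene of the Cajal body protein coilin, had a median of 2.86 (0 to 8.61) in X-Mus X-Cast, 3.27 (0 to 11) in X-Cast O-Mus and 0.363 (0 to 1.54) in X-Mus O-Cast cells. For Apoa2 the medians were 0.963 (0 to 3.54), 4.17 (0 to 10.1) and 4.05 (0.727 to 11.7) in the same order. The ranges overlapped for both genes.

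Several of the genes act in mitochondria, in the proteasome or in RNA metabolism. Among gene lists compiled with earlier results of these data known, that of mitochondrial respiratory and assembly genes had 7 of 43 tested genes in the set (16.3%), proteasome and ubiquitin genes 4 of 28 (14.3%), and translation and RNA-binding housekeeping genes with many processed pseudogenes 3 of 21 (14.3%), beside 4.05% of all tested genes. The median Mus share of these lists was 47.2%, 47.9% and 45.6%, close to that of all tested genes, so most of their members were read from both alleles. The list of glycolysis and cytoskeleton genes had 2 of 20 (Pgam1 and Tubb5) and that of HMG and histone genes 1 of 7 (H2afz). At the opposite end, 3 of the 20 glycolysis and cytoskeleton genes had a Mus share of at least 95%, and the median of that list was 56.1%. The proteasome and translation lists had 1 gene each at that end, and the mitochondrial and histone lists 0. None of the 36 tested cell cycle and DNA replication genes was in the set, nor any of 22 pluripotency genes, 9 early embryo and germline multicopy genes, 12 genes of glutathione and xenobiotic families, 5 MHC and immune genes, 2 fibroblast markers or 1 primitive endoderm or trophoblast marker. The pluripotency gene Zfp42 (Rex1) had a Mus share of 4.63% over 11655 counts and was left out only by its symbol. Of 19 tested imprinted genes, Peg3 alone was at or below 5% (2.94%).

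Succinate dehydrogenase stood out by eye, a choice made after the values were seen. It is complex II of the respiratory chain and consists of the products of Sdha, Sdhb, Sdhc and Sdhd. The iron-sulfur subunit gene Sdhb (1.28%, 0.745% to 2.04%) and the membrane anchor genes Sdhc (0.0174%) and Sdhd (0.353%, 0.0729% to 1.03%) were read almost only from Cast, on chromosomes 4, 1 and 9, while the flavoprotein subunit gene Sdha had a Mus share of 36.1% (34.6% to 37.7%). In complex I, Ndufs5 (0.225%) and Ndufb7 (1.07%) were in the set, among 31 tested genes with symbols starting with Nduf, whose median share was 44.7%. Of 12 tested Timm and Tomm genes, which serve import into mitochondria or carry the name, Timm23 (0.179%), the complex I assembly factor Timmdc1 (0.89%) and Tomm40l (0 of 524 counts, which allows up to 0.573%) were in the set (25%, beside 4.05% of all tested genes), while Tomm20 was read from the other allele, with a Mus share of 96.8% (95.6% to 97.8%). This family was compared after its values were seen.

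Proteasome genes in the set were Psmb5 of the catalytic core and Psmd6 (0.26%) and Psmd8 (1.42%) of the regulatory particle, 3 of 28 tested Psma to Psmd genes (10.7%, beside 4.05% of all tested genes), while Psma5 of the same family had a Mus share of 99.8%. Among 19 tested RNA polymerase subunit genes, Polr1d (3.47%), Polr2l (2.95%), whose product is shared by all nuclear polymerases, and Polr3f (3.96%) were included, or 15.8%. Splicing and RNA-binding genes were represented by Hnrnpc (1.01%), Snrpd1 (0.0964%), Lsm5 (0 of 897 counts, limit 0.334%) and Srsf10 (0 of 604 counts, limit 0.497%), 4 of 31 tested Snrp, Lsm, Srsf and Hnrnp genes (12.9%). Other families compared were Eif with 1 of 27 tested genes (Eif3e, 3.7%), Hsp with 1 of 15 (Hspa8, 6.67%), Tub and Cox with 1 of 11 each (Tubb5 and Cox14, 9.09%) and Atp5 with 2 of 12 (16.7%). At the opposite end were Srsf3 (96.1% Mus) and the alpha-tubulin gene Tuba1b (99% Mus). The share of the Eif genes was near that of all tested genes, and each of these family counts but that of Snrp, Lsm, Srsf and Hnrnp rests on 3 genes or fewer. Rps and Rpl genes, which the set leaves out, had 11 of 58 tested genes at or below 5% (19%), and their median share was 34%. That compares with 4.57% of all tested genes before any were left out, and 3 Rps and Rpl genes were at or above 95%. A few genes have roles outside basic cell maintenance: Grm8, a metabotropic glutamate receptor gene, had reads in all 47 cells (1199 Cast and 30 Mus counts), Aim2, a cytosolic DNA sensor gene, in 34 cells (1001 and 9), and Cbx7, a chromodomain protein gene of Polycomb complexes, in 45 cells (2824 and 138).

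Along the genome the genes were unevenly placed. Chromosome 14 held 11 of them among 91 tested genes (12.1%), chromosome 15 held 9 of 96 (9.38%), chromosome 8 held 11 of 137 (8.03%), chromosome 4 held 11 of 176 (6.25%) and chromosome 1 held 11 of 194 (5.67%), while chromosomes 12 and 13 held 1 each of 91 and 94. Chromosome 1 differed from the other autosomes in the median Mus share of its other tested genes, which was 32.7%, against 42.8% to 51.3% on the other chromosomes. Pooled over all its genes and all cells, its share was 31.8%, with 33.5% on chromosome 14 and 38.8% to 50.2% on the other autosomes. In single cells the pooled share of chromosome 1 ran from 27.6% to 34.9% in 43 cells and from 44% to 47.7% in 4 cells that stood apart. In these 4 cells (2 X-Mus O-Cast cells and 1 of each other class) the 11 genes of the set on chromosome 1 had 25 Mus counts among 1744, or 1.43% (0.93% to 2.11%), against 0.785% (0.684% to 0.896%) in the other 43. The Mus share of the whole set was 1.6% (1.42% to 1.78%) in the 4 cells and 1.1% (1.05% to 1.15%) in the others. Singly the 4 cells had 0.999%, 1.06%, 1.59% and 2.69%, on both sides of the value of the others. The cell with 2.69% held 134 of their 302 Mus counts. Without the 4 cells the same limits gave 104 genes, 101 of them shared with the 102.

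Of the 102 genes, 40 (39.2%) lay within 500 kb of another of the set, whereas 162 of the 2415 other tested genes (6.71%) lay that close to one. In the order of tested genes, 41 (40.2%) were next to another of the set, against 6.05% of other tested genes. Within 500 kb the genes formed 15 groups, 2 of which held 5 or more.

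The group on chromosome 1, at chr1:171127165-171295024 (GRCm38), spans 168 kb and holds 5 genes, among them Sdhc, Tomm40l, Apoa2 and Ufc1. Sdhc had 1 Mus count and Tomm40l and Apoa2 had 0, while Ufc1, a ubiquitin-fold modifier conjugating enzyme gene, had 20 among 506 counts (3.95%). Of 3 further genes between them with at least 47 counts, B4galt3 had 0 of 133 and Ppox 2.78% of 252 from Mus, but Usp21 had 23% of 217. In the flanking 500 kb the other genes had a median Mus share of 12.1%, and Nit1 (17.4% of 1089 counts) and Usf1 (19.9% of 1622) lay on 1 side and Dusp12 (10.4% of 1987) on the other. The Mus share was thus below that of most tested genes across the region, with Fcrla (74.1% of 444 counts) as an exception, and close to 0 in Sdhc, Tomm40l and Apoa2.

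On chromosome 14, at chr14:54235479-55024137, 6 genes lay within 789 kb: Dad1, Prmt5, Ajuba, a LIM domain scaffold gene, Psmb5, 1700123O20Rik and Ngdn. Genes without this property stood between them. Haus4 had a Mus share of 27.8% over 3666 counts, Oxa1l 18.2% over 1151 and Abhd4 38.7% over 751. The neighbouring genes Prmt5, Ajuba and Psmb5 had Mus reads in 39, 28 and 41 cells, and Dad1 in 2 cells.

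The group on chromosome 16, at chr16:38498347-38592162, consists of Timmdc1, Poglut1 and Tmem39a within 93.8 kb, with 7 Mus reads among 6548 counts. A further group on chromosome 11, at chr11:88924020-88991613, joined the carboxypeptidase gene Scpep1 (2 Mus of 2610 counts) and Coil (2 of 2127), which encodes coilin of Cajal bodies. Near them Akap1 had 0 of 420 and Dgke 0 of 154 counts from Mus, but Trim25, also within 500 kb, had a Mus share of 36.1% over 1353 counts. On chromosome 17, Tubb5 and Gtf2h4 lay 160 kb apart, and Flot1 (0 of 74) and Vars2 (0 of 178) close to them also had no Mus read, while Ddr1 between them had a Mus share of 78.5% over 65 counts. Low shares thus occurred in several neighbouring genes, with genes read from both alleles among them on chromosomes 11 and 17. Within 500 kb of the group on chromosome 16 the only other gene with at least 47 counts was B4galt4, with 0 of 54 counts from Mus.

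**Figure D3:**
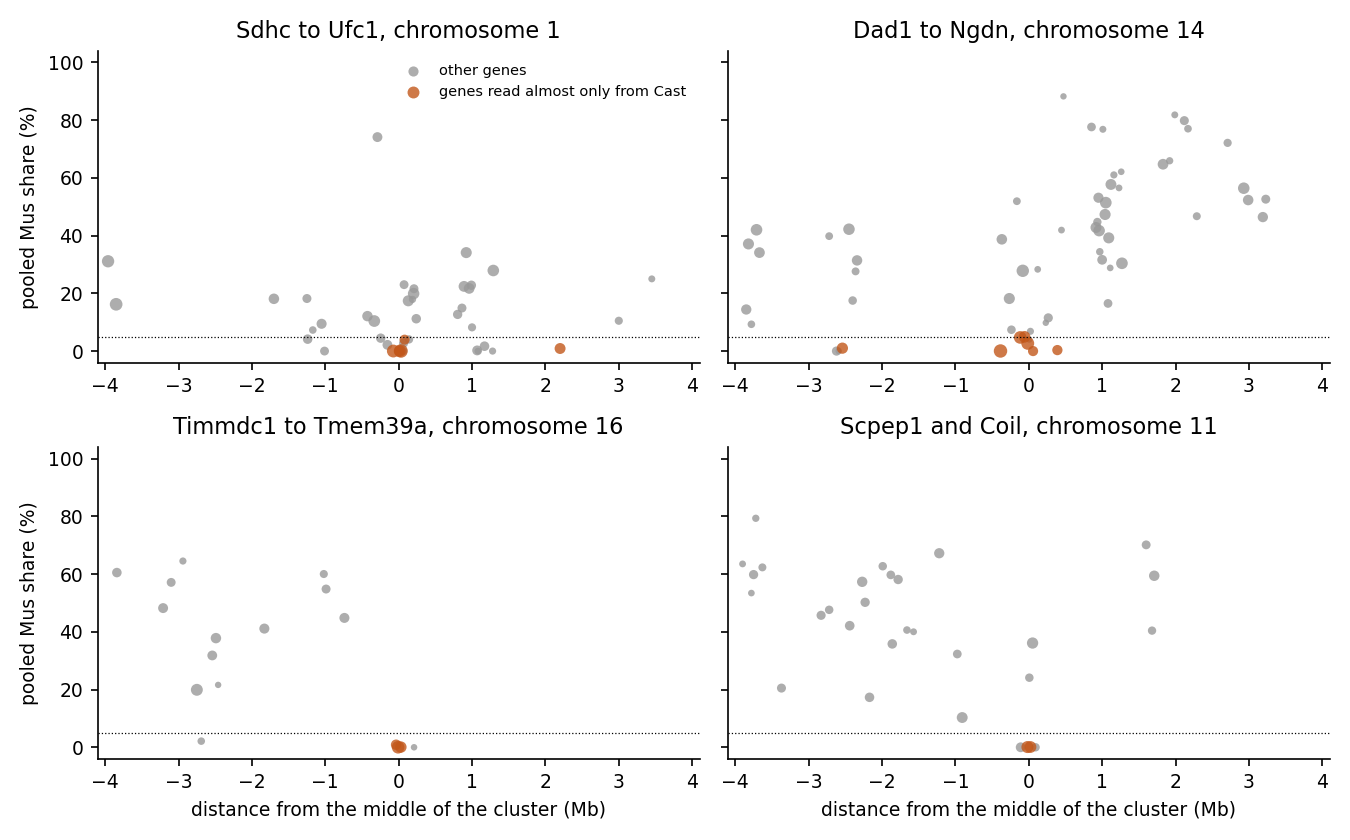
Pooled Mus share in percent (y axis) of genes with at least 47 counts against the distance of the gene from the middle of a group in Mb (x axis) for 4 groups; orange points are the genes read almost only from Cast, grey points other genes, point size grows with counts and the dotted line marks 5%. In each panel the orange points of the group lie within 1 Mb of its middle, and grey points within the same distance stand above the line.

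The remaining groups included the triples Snx5, Polr3f and Dtd1 on chromosome 2 and Sdhb, Necap2 and Zbtb17 on chromosome 4, and the pairs Pafah2 and Aunip (chromosome 4), Sae1 and Tmem160, Fbxo17 and Psmd8 (both chromosome 7), Sgk1 and E030030I06Rik (chromosome 10), Cnot8 and Gemin5, Nt5c and Jpt1 (both chromosome 11) and Aaas and Atp5g2 (chromosome 15).

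Autosomal genes with 47 to 469 counts could not enter the set, so their shares were not used to choose it. Of 5012 such genes, 241 (4.81%) had a Mus share of at most 5%. Within 100 kb of a gene of the set, without overlapping it, the proportion was 34 of 156 (21.8%). It was 12.4% of 266 genes at 100 to 500 kb, 6.45% of 512 at 500 kb to 2 Mb, 3.89% of 1285 at 2 to 10 Mb and 3.19% of 2786 farther away. Without chromosome 1 the values were 19.3%, 12.4%, 4.95%, 3.78% and 3.11%. A Mus share of at least 95% was found in 0 of the 156 nearest genes and in 72 of all 5012 (1.44%). The median Mus share of the nearest genes was 23.4%, against 44.6% over all genes of this kind. Neighbouring genes are not independent of each other, and no test was made.

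**Figure D4:**
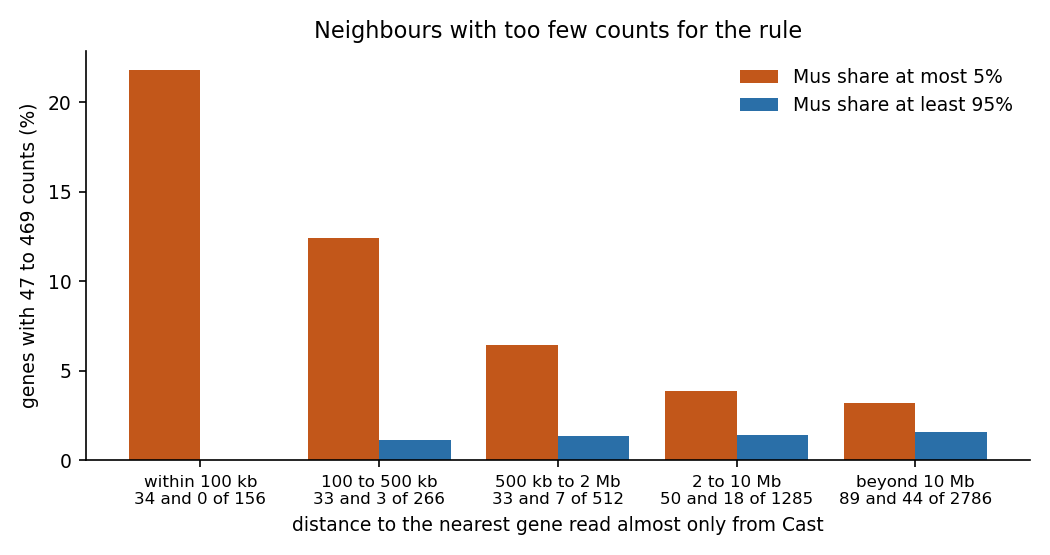
Percent of autosomal genes with 47 to 469 counts (y axis) that had a Mus share of at most 5% (orange) or at least 95% (blue), by distance to the nearest gene read almost only from Cast (x axis, with the numbers of genes). The orange bars fall from 21.8% within 100 kb to 3.19% beyond 10 Mb, and the blue bars stay between 0% and 1.58%.

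Tested genes within 500 kb that were not in the set had a median Mus share of 39.5%, against 47% for all tested genes outside the set. The rule had taken nearly all genes at or below 5% out of both groups, and 40 genes of the set that lay within 500 kb of another are not among these neighbours, so the median describes only the genes that the rule left. Genes with too few counts for the rule, from which none was taken out, had a median of 30.5% within 500 kb.

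Signs of ambiguous mapping were measured on the annotation. All 102 genes were protein coding. An exact copy of at least 1 of the 50-base windows of their exons was found in a transcript of another, non-overlapping gene for 40 of them (39.2%), against 36% of tested genes. More than 10% of windows were copied in 18 (17.6%), against 11.2% of tested genes. The corresponding shares were 22.5% and 15.6% for coding windows, and 13.7% and 6.91% for windows of 100 bases. Windows copied in a processed pseudogene were found for 32.4% of the set and 31.1% of tested genes, and a pseudogene named after the gene for 3.92% and 4.81%. In all these comparisons the tested genes include 58 Rps and Rpl and 24 Zfp genes, which the set leaves out, so the 2 sides are not alike. Most copied were Timm23 (83.9% of windows), Hspa8 (68.8%), the histone variant gene H2afz (63.8%), Psmb5 (47.4%) and the phosphoglycerate mutase gene Pgam1 (41.5%). Copied sequence was not general, though: 62 of the 102 genes had no copied window, Dad1, Ghitm and Poglut1 among them, and Tubb5 and Sdhc shared at most 0.102% of their windows with another gene.

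Genes with more than 10% copied windows were also more often at the opposite end. Of 281 such tested genes 18 (6.41%) were in the set and 13 (4.63%) had a Mus share of at least 95%, while of 1612 genes with no copied window 62 (3.85%) were in the set and 3 (0.186%) at the Mus end. Their median Mus share was 45.2% and 46.3%, respectively. The set leaves out imprinted, Rps, Rpl and Zfp genes, whereas the counts at the Mus end keep them. The 18 and 62 genes may therefore understate the Cast end beside the Mus end. Over all tested genes, leaving such genes out lowered the Cast end from 115 to 102 genes and the Mus end from 17 to 14. How many of the genes left out had copied windows is not given here. Whether copied sequence took part in the Cast-only reading of any gene was not tested.

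**Figure D5:**
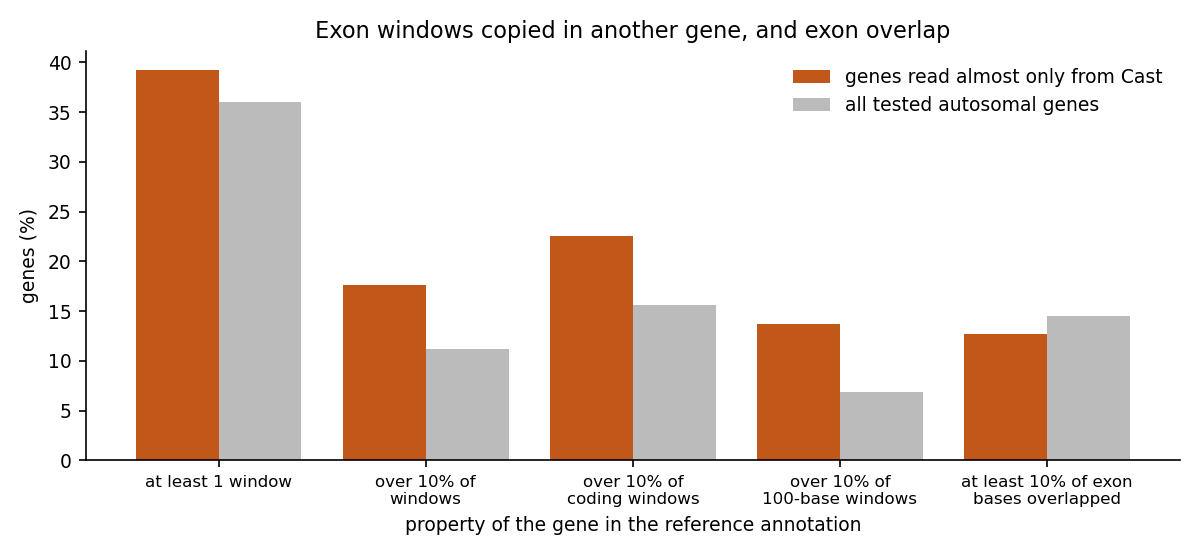
Percent of genes (y axis) with copied exon windows or with exons overlapped by another gene (x axis), for the 102 genes read almost only from Cast (orange) and all tested autosomal genes (grey). The grey bars include Rps, Rpl and Zfp genes, which the set leaves out. The orange bars are higher in the 4 comparisons of copied windows, with 17.6% against 11.2% for more than 10% of windows, and lower for exon overlap, with 12.7% against 14.5%.

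Overlap with the exons of another gene was not more frequent in the set: at least 10% of exon bases were overlapped in 13 genes (12.7%), against 14.5% of tested genes. The highest overlaps were those of AL731706.1 (100% of exon bases, with AL731706.2, Mkks and Slx4ip), Gng10 (72%, with Gm20503) and Tomm40l (64.3%, with Nr1i3), and counts at the shared bases cannot be told apart from those of the partners. Prdx2 shared 11.5% of its exon bases with Junb and Rnaseh2a.

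Levels per exon length were also compared. The median of Cast counts per 1000 exon bases was 373 in the set and 160 over tested genes, and the median of the counts of both alleles was 375 and 302. The limit on counts had to be met through the Cast allele alone by genes of the set and could be met by both alleles in the others, so that nothing is read from these differences, and the scale depends on the number of SNPs per gene, which the table does not give. The median exon length was 3150 bases in the set and 3820 over tested genes.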

How the data were processed

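After sorting of single iPSCs into a GpC methylase mix, mRNA was captured with beads (G&T-seq) and amplified, and Nextera XT libraries were read in 50-base single-end mode. The submitters' processing notes name STAR 2.5.3a, SAMtools and mm10. For allelic reads of Smart-seq2 libraries, the study's methods describe alignment to a genome with masked SNP positions, assignment of reads with SNPsplit to 129S1_SvImJ or CAST_EiJ and counting at SNP positions, where a read over several SNPs can count more than once, and genes with at least 4 SNPs were kept. No other allelic processing is described for this plate, but its protocol is not named Smart-seq2. The authors deposited raw allelic counts per gene, with 1 column per allele and cell and no normalization, and total counts of 71682 to 216451 per cell set the precision.

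Everything else was computed in Python 3.11.15 (matplotlib 3.10.9, numba 0.67.0, scipy 1.17.1, pandas 2.3.3, numpy 2.4.6). Gene positions came from GENCODE M21 (GRCm38) by symbol, from RefSeq for 1 symbol, and 1 symbol was left without a position. Counts were summed over the 47 cells, and imprinted genes were taken from a list of 145. The rule, the gene lists and the named groups were chosen with earlier results of these data known. Copies of exon windows (50 bases, 100 bases, or coding only) were searched on both strands in the transcripts of all other annotated genes that do not overlap the gene, since no genome sequence was used here, although a search of the genome had been planned. The rule was run on simulated counts with Mus shares well below or well above the limit, which checks the code and not its behaviour near the limit. Any gene of the set could be named, other genes as neighbours or at the limits, and Sdha, Zfp42, Peg3, Tomm20, Psma5, Srsf3 and Tuba1b were named after their values were seen. Alternatives covered the limits of the rule, the weighting of cells, cell classes, plate columns, distances, windows and the scale of the share of counts. A few genes of the set are counted but not reported here by name.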

Additional observations from a re-analysis of the deposited data

Results flagged for a closer look

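In the 9 X-Mus O-Cast cells, 14 values were checked for a cell that stood apart from the others by Dixon's ratio, and 5 were marked. Chance marks about 1 in 20 such groups, and the values share cells and counts. The genes read almost only from Cast took 3.24% of the allelic counts in 1 cell, with 2.9% in the next. Their Mus share reached 2.69% in 1 cell, against 1.59% in the next. Reads were found for 74 of the 102 genes in the lowest cell, against 85 in the next. Cast counts per 10000 allelic counts were highest at 32.1 for Dad1, with 14.7 in the next cell, and at 22 for Atp5g1, with 8.22 in the next. The last 3 of these values come from the same cell, which had the fewest allelic counts of all (71682, with 135430 in the next of its class), and the 2 cells with the highest Mus share both stood apart on chromosome 1, with Mus shares of 47.7% and 46.8%. The cell with a share of counts of 3.24% was the second of these.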

How the results depend on the processing

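The number of genes read almost only from Cast was 102, and it fell to 55 with 2 times the minimum of counts and rose to 228 with no minimum, as the construction of these alternatives implies. Limits of 2% and 10% on the Mus share gave 71 and 145 genes, and a minimum of 235 counts gave 148. Counting each class alone gave 109 genes in X-Mus X-Cast, 111 in X-Cast O-Mus and 111 in X-Mus O-Cast cells, of which 95, 93 and 80 were among the 102 (87.2%, 83.8% and 72.1% of those genes, and 93.1%, 91.2% and 78.4% of the 102). Leaving out genes with more than 10% copied windows or with at least 10% of exon bases overlapped, an alternative chosen after seeing the data, left 74. Another gene of the set lay within 2 Mb of 62 genes, against 40 within 500 kb. The median Mus share of neighbouring tested genes was 44.2% within 2 Mb and 39.5% within 500 kb. The median share of counts per cell was 2.72% of allelic counts, 3.52% of autosomal counts and 2.49% without Tubb5. The median share of copied windows was 0% with each kind of window. No paired analysis was possible because all cells form 1 sample and no test between groups was made, and no replicate could be left out. Depth limits the weakest genes most: Jpt1, with 483 counts and no Mus read, allows a Mus share of up to 0.621%.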
